A study of Mus musculus with 24 samples.

Results

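The genes of the proteasome were followed in the epididymal white fat (eWAT) of mice with and without a working circadian clock in the brain's pacemaker. A gene was a member if its symbol in the array's gene table began with Psma, Psmb, Psmc, Psmd, Psme or Psmg and went on with a number. A gene was represented by its brightest probe set that carries 1 symbol, and 48 of 22180 genes with such a probe set were members. Of these, 46 passed a minimum signal and were among the 15526 genes tested. Psma5 and Psma8, at mean log2 signals of 6.36 and 6.86, lay below the minimum of 7.42 and were not tested. Probe sets that name several genes, 4 of them with a member's symbol, were not used.

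MUT mice were Syt10-Cre/Cre x Bmal1 flox/- animals, in which clock function is deleted in the suprachiasmatic nucleus (SCN). Their controls, CON, were Syt10-Cre/Cre x Bmal1 +/- animals, so both genotypes carried Syt10-Cre and 1 null allele of Bmal1. Mice were kept in light-dark cycles for 2 weeks and then in constant darkness, and were killed during day 2 of darkness at CT1, 7, 13 or 19 (circadian time in h), with 3 arrays per genotype and time. The study's design text gives 3 mice per time point and genotype, and p-values measure the spread between these arrays. The titles tell the arrays of a group apart by letters only. Cre is driven from Syt10, a gene of the SCN and other cells, and the mice's age is not given in the sources used here. BMAL1 is encoded by Arntl, whose mean log2 signal in the fat was 8.49, 8.19, 9.52 and 9.15 at CT1, 7, 13 and 19 in MUT, against 8.95, 8.07, 8.36 and 9.54 in CON. The fat itself thus still held Arntl mRNA that varied over the day in MUT. The labels give eWAT in the titles and in the treatment protocol, but mediobasal hypothalamus as the source. All 10 adipocyte markers looked up were on the array, at a median percentile of 99.6 of all genes, against 40.5 for 12 neuronal and hypothalamic markers and 25.6 for 8 T and NK cell markers. Array medians ran from 7.80 to 7.94, with group means of 7.82 to 7.85 in MUT and 7.87 to 7.91 in CON. The SD of log2 signal over probe sets was lowest, 1.583 to 1.591, on 3 CON arrays (CT7 replicates 2 and 3 and CT13 replicate 1). It was 1.598 to 1.671 on the other arrays. Group means of this SD were larger in MUT at each time, 1.625 to 1.650 against 1.600 to 1.629 in CON. The part of this scale difference in MUT minus CON was not tested beyond the alternative settings. In bulk tissue, fewer cells of a type and less RNA per cell cannot be told apart.

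The proteasome is the protease that degrades proteins tagged with ubiquitin. Its core is a stack of rings, the outer ones of alpha subunits that gate entry and the inner ones of beta subunits, of which the products of Psmb5, Psmb6 and Psmb7 carry the catalytic sites. The regulatory cap that binds ubiquitin and unfolds the substrate has a ring of ATPases (the Psmc genes) and a set of non-ATPase subunits (most Psmd genes). Under interferon the catalytic subunits can be replaced by those of Psmb8, Psmb9 and Psmb10, which gives the immunoproteasome that favours peptides for MHC class I. Psme genes encode alternative caps, and Psmg genes with Psmd5, Psmd9 and Psmd10 encode assembly chaperones. In fat the proteasome is known best from brown adipocytes, where it is needed for the response to cold.

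Sorted by these roles, the members were 7 genes of the alpha ring (5 tested), 7 of the constitutive beta ring, 4 immunoproteasome beta subunits, 6 cap ATPases, 11 non-ATPase cap subunits, 4 activator caps and 7 assembly chaperones. Psma8 counts among the 7 alpha-ring genes, and no member had the symbol Psma4. The immunoproteasome class includes Psmb11, the thymus-specific beta subunit. Psmc3ip and Psme3ip1 match the rule by their letters only: the first encodes a partner of Psmc3 known from meiotic recombination and the second an interactor of Psme3. Psma5, Psmc2 and Psmg2 each have 2 probe sets. The dimmer one of Psmg2 (7.61 in CON at CT13, against 7.54 at CT19) did not follow the brighter one (8.33 and 8.59), and that of Psmc2 did not follow its brighter partner either, 7.89 against 8.87 in CON at CT13 where the brighter one was lowest.

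The stretches before the transcription start of 5 members called rhythmic in CON, and of Psmb9, an immunoproteasome gene not called there, are shown first. The 5 are those whose calls held under every alternative that tested them. Each is the 250 bases before the start on the gene's own strand, from RefSeq's table for GRCm38.p6. Capitals mark letters that match a motif searched on both strands: the antioxidant element TGACNNNGC, the E-box CACGTG, the D-box TTANGTAA, the interferon element (GAAA, any 2 bases, GAAA) and the CCAAT box.
Psma7, chr2:180042465-180042714, minus strand: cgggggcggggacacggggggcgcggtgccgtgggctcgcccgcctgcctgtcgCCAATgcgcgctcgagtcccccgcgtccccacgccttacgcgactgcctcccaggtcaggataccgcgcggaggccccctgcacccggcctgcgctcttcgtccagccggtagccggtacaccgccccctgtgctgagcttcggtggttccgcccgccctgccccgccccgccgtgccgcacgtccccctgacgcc
Psmb6, chr11:70525107-70525356, plus strand: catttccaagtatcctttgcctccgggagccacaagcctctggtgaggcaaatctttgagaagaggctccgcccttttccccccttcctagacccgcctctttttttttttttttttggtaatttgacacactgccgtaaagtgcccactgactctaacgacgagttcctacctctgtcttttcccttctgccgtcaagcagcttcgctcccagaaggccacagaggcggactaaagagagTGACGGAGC
Psmc1, chr12:100109952-100110201, plus strand: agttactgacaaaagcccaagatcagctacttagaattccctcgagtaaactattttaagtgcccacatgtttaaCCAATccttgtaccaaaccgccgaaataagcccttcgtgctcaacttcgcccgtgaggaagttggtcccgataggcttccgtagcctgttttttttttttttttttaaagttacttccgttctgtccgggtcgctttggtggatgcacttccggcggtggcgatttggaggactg
Psmc5, chr11:106255935-106256184, plus strand: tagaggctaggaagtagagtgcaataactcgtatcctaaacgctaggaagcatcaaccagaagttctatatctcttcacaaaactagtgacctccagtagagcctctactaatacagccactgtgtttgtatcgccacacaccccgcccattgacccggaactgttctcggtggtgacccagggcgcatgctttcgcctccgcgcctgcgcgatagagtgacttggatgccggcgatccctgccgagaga
Psmd4, chr3:95042615-95042864, minus strand: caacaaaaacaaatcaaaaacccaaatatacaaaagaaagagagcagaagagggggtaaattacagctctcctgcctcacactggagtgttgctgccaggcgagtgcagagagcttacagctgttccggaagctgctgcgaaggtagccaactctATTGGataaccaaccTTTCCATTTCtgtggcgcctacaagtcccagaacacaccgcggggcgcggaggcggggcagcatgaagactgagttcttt
Psmb9, chr17:34187331-34187580, minus strand: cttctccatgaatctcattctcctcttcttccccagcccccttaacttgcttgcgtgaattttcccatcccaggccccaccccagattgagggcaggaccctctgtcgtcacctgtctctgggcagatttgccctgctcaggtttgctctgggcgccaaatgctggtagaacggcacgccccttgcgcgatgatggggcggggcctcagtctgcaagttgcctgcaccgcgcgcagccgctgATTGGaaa

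The motifs were counted over 300 bases, from 250 before to 50 after the start, for the 40 members in the table and for all 27025 genes in it. The other 8 members are Psma8, Psmb1, Psmb2, Psmb7, Psmc3, Psmd3, Psmd7 and Psmg2. The antioxidant element, the letters bound by NRF1 and NRF2, was in 6 members (15%), among them Psmb6 and Psmb5, and in 14% of all genes. The E-box, bound by BMAL1 with CLOCK, was in 4 members (10%), Psmb10, Psmd9, Psme3 and Psme3ip1, against 8.09% of all genes. No member held the D-box letters, which 2.72% of genes had. The interferon element was in 5 members (12.5%, against 3.99%), of which none was Psmb8, Psmb9 or Psmb10, and the CCAAT box was in 16 (40%, against 41.1%). A CCAAT box was held by 5 of the 6 alpha-ring genes there. These are matches of letters in a short window and say nothing of binding. In Psmd4 a CCAAT box and the interferon element lay close together without overlap.

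In MUT fat no proteasome gene passed the test for a 24-h rhythm, while in CON fat 14 did, all with a fitted peak between CT18 and CT6. A rhythm was a fitted 24-h cosine over the 4 times, its size the log2 peak-to-trough with the SE of the fit, and the call limma's moderated F test with a Benjamini-Hochberg adjusted p under 0.05 over all 15526 genes. In MUT 0 of 46 members were called, where 0.348% of all genes were, and 5 of 46 (10.9%, against 14.6%) had an unadjusted p under 0.05. An F test over the 4 times without a cosine also called 0 members in MUT. In CON 14 of 46 members were called (30.4%), where 17.1% of all genes were. Called with a peak between CT18 and CT6 were 12.2% of all genes. At an unadjusted p under 0.05 the counts in CON were 22 members (47.8%) and 33.7% of all genes. Both genotypes had the same number of arrays, and the smaller number of calls in MUT held over all genes too (54 against 2650 in CON).

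The share in CON depended on how the arrays were put on a scale. It was 39.1% of members against 19.2% of all genes with arrays shifted to the same median, 17.4% (8 members) against 17.3% after quantile normalization, and 15.2% (7 members) against 15.5% once each array's trend on signal level was removed. Omitting the 3 CON arrays of narrow spread left 6 called members (13%, against 6.51%). That omission left CON CT7 replicate 1 alone in its group, so a call could also end there through the loss of arrays. Leaving out CON CT1 replicate 3 or CON CT13 replicate 1 gave 8 in either case. Psma7, Psmb6, Psmc1, Psmc5 and Psmd4 kept their call under every alternative that tested them and without any 1 of the 24 arrays. The other 9 calls ended under at least 1 alternative.

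**Figure D1:**
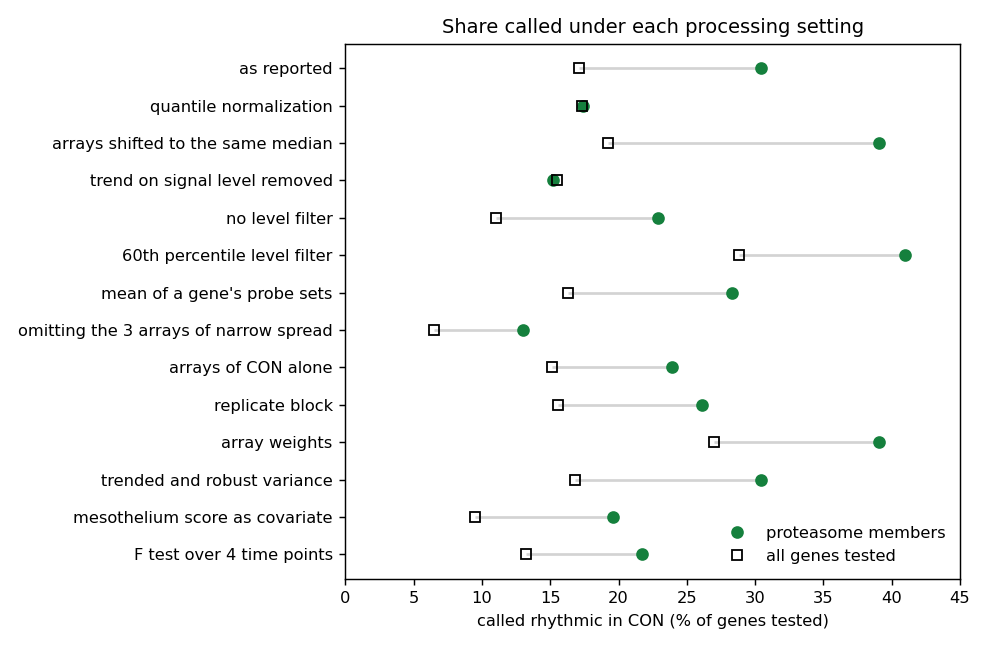
The percentage of genes called rhythmic in CON (x axis) for the proteasome members (filled circles) and for all genes tested (open squares) under each processing setting (rows). As reported the members stood at 30.4% and all genes at 17.1%; after quantile normalization (17.4% and 17.3%) and with the level trend removed (15.2% and 15.5%) the symbols coincide.

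The common form of the CON time course changed less with scaling than the number of calls. In CON 30 of 46 members (65.2%) had their lowest mean at CT13, against 26.2% of all genes, and in MUT 12 of 46 (26.1%), against 27.9%. The count in CON was 26 (56.5%, against 24.3%) after quantile normalization, 27 (58.7%, against 24.6%) with the level trend removed and 31 (67.4%, against 28.4%) without the 3 narrow arrays. The fitted CON peak lay between CT18 and CT6 in 42 of 46 members (91.3%), against 55.3% of all genes. With the level trend removed it did so in 37 of 46, against 50% of all genes. The window and the time of the lowest mean are those of the members' own CON values, so these shares are descriptions and not tests. The median size was 0.13 in MUT and 0.24 in CON for members, and 0.13 in MUT and 0.18 in CON for all genes.

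For the 29 core and cap genes, the median deviation from each gene's mean was 0.06 ± 0.07, -0.03 ± 0.07, -0.01 ± 0.08 and -0.01 ± 0.06 at CT1, 7, 13 and 19 in MUT (SD, n = 3). In CON it was 0.10 ± 0.04, -0.01 ± 0.07, -0.14 ± 0.04 and -0.01 ± 0.11. All 3 CON arrays at CT13 lay between -0.18 and -0.10, below every other CON array except CON CT19 replicate 1 at -0.13. A set of 4201 other genes had mean log2 signals between the members' lower and upper quartiles, 8.99 and 10.16. Its medians were 0.04, 0.0021, 0.0080 and 0.05 in MUT and 0.02, -0.06, -0.07 and -0.0069 in CON. The narrow arrays lie at CT7 and CT13 in CON, and the part of this scale difference in the result was not tested beyond the settings above.

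**Figure D2:**
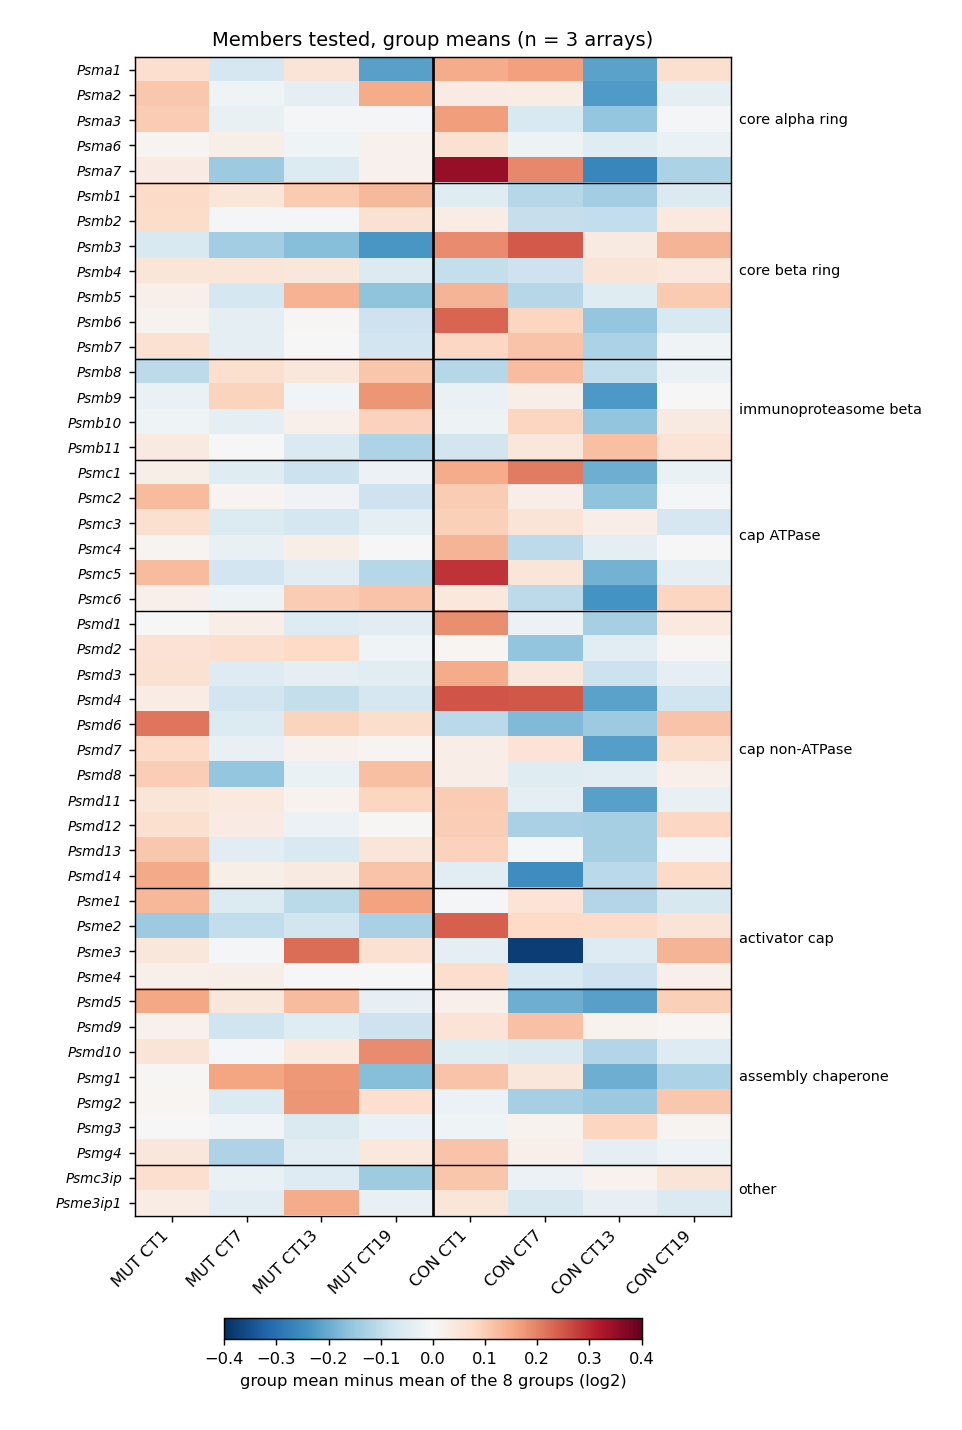
Mean log2 signal of each of the 46 tested members (rows, by role) in the 8 groups (columns, MUT left of CON), as the difference from the mean of the 8 groups; colours run from -0.4 to 0.4 on the log2 scale, n = 3 arrays per group. The CON CT13 column is blue in most core and cap rows, with 30 of 46 members at their lowest CON mean there, against 12 of 46 at their lowest MUT mean at that time.

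In the alpha ring 0 of 5 tested genes were rhythmic in MUT and 2 of 5 in CON, Psma7 and Psma3. Psma7 lies on chromosome 2. Psma7 was at 9.42, 9.53 and 9.48 at CT1, 9.28, 9.18 and 9.42 at CT7, 9.35, 9.44 and 9.38 at CT13 and 9.49, 9.47 and 9.41 at CT19 in MUT. In CON Psma7 was at 9.80, 9.85 and 9.71 at CT1, 9.86, 9.53 and 9.51 at CT7, 9.22, 9.28 and 9.04 at CT13 and 9.21, 9.27 and 9.47 at CT19. The CON arrays at CT1 were all above the MUT arrays, and those at CT13 all below the MUT arrays of that time. Its size was 0.19 ± 0.09 in MUT (SE, adjusted p = 0.481) and 0.69 ± 0.09 in CON (1.61-fold, peak at CT2.84, adjusted p = 0.000102), the largest size of any member in either genotype. Psma3, another alpha subunit, was at 10.35, 10.41 and 10.42 at CT1, 10.26, 10.29 and 10.23 at CT7, 10.27, 10.15 and 10.44 at CT13 and 10.31, 10.33 and 10.21 at CT19 in MUT. In CON Psma3 was at 10.42, 10.51 and 10.45 at CT1, 10.26, 10.14 and 10.28 at CT7, 10.11, 10.29 and 10.01 at CT13 and 10.14, 10.30 and 10.41 at CT19. The CON arrays at CT1 were the highest of that genotype, and the rest overlapped. Psma3 had a size of 0.33 ± 0.08 in CON (adjusted p = 0.0188). Its call ended after quantile normalization (0.0523), with the trend removed (0.0855) and without the narrow arrays (0.102).

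Of the 7 constitutive beta-ring genes none was rhythmic in MUT (smallest adjusted p, 0.744 for Psmb2 at 0.11 ± 0.08) and 1 in CON, Psmb6, which encodes the caspase-like catalytic subunit. Psmb6 was at 9.15, 9.13 and 9.21 at CT1, 9.12, 9.07 and 9.15 at CT7, 9.21, 9.03 and 9.22 at CT13 and 8.92, 9.13 and 9.16 at CT19 in MUT. In CON Psmb6 was at 9.30, 9.41 and 9.44 at CT1, 9.32, 9.12 and 9.27 at CT7, 8.97, 9.09 and 8.93 at CT13 and 8.99, 9.05 and 9.23 at CT19. All CON arrays at CT1 were above every MUT array. The size of Psmb6 was 0.05 ± 0.08 in MUT and 0.42 ± 0.08 in CON (1.33-fold, peak at CT2.40, adjusted p = 0.00359). Psmb5 and Psmb7, for the chymotrypsin-like and trypsin-like subunits, did not pass. Psmb5 was at 11.41, 11.53 and 11.68 at CT1, 11.52, 11.32 and 11.51 at CT7, 11.60, 11.22 and 12.17 at CT13 and 11.44, 11.27 and 11.38 at CT19 in MUT. In CON Psmb5 was at 11.50, 11.85 and 11.63 at CT1, 11.51, 11.38 and 11.33 at CT7, 11.57, 11.42 and 11.43 at CT13 and 11.47, 11.71 and 11.71 at CT19. A single MUT array at CT13 stood apart at 12.17, and the groups overlapped at each time except CT19, where MUT was lower on all arrays. Psmb7 was at 9.44, 9.23 and 9.45 at CT1, 9.39, 9.32 and 9.12 at CT7, 9.36, 9.13 and 9.45 at CT13 and 9.21, 9.22 and 9.29 at CT19 in MUT. In CON Psmb7 was at 9.34, 9.48 and 9.37 at CT1, 9.40, 9.40 and 9.48 at CT7, 9.18, 9.27 and 9.11 at CT13 and 9.18, 9.32 and 9.40 at CT19. The sizes in CON were 0.29 ± 0.15 for Psmb5 (adjusted p = 0.325) and 0.24 ± 0.09 for Psmb7 (adjusted p = 0.109).

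The immunoproteasome genes had no call in any of the 8 comparisons as reported. For the daily mean Psmb9 (0.11 ± 0.05 higher in MUT, adjusted p = 0.117) was called with arrays shifted to the same median (0.033), with array weights (0.0426) and without CON CT7 replicate 1 (0.0261). Psmb8, an interferon-inducible catalytic subunit that takes the place of Psmb5, was at 8.61, 8.69 and 8.63 at CT1, 8.93, 8.71 and 8.80 at CT7, 8.91, 8.85 and 8.63 at CT13 and 8.89, 8.86 and 8.82 at CT19 in MUT. In CON Psmb8 was at 8.56, 8.72 and 8.62 at CT1, 9.07, 8.80 and 8.74 at CT7, 8.72, 8.49 and 8.75 at CT13 and 8.76, 8.77 and 8.63 at CT19. The 2 genotypes overlapped at CT1, CT7 and CT13, and at CT19 every MUT array was above the CON arrays. Psmb9, which takes the place of Psmb6, was at 8.44, 8.35 and 8.08 at CT1, 8.50, 8.21 and 8.50 at CT7, 8.35, 8.26 and 8.31 at CT13 and 8.39, 8.58 and 8.52 at CT19 in MUT. In CON Psmb9 was at 8.24, 8.30 and 8.34 at CT1, 8.62, 8.15 and 8.28 at CT7, 8.07, 8.19 and 7.9996 at CT13 and 8.25, 8.38 and 8.33 at CT19. At CT13 and at CT19 the MUT arrays were all above the CON arrays. Psmb10, which takes the place of Psmb7, was at 9.67, 9.56 and 9.57 at CT1, 9.68, 9.54 and 9.51 at CT7, 9.60, 9.69 and 9.62 at CT13 and 9.82, 9.64 and 9.66 at CT19 in MUT. In CON Psmb10 was at 9.62, 9.56 and 9.60 at CT1, 9.84, 9.68 and 9.59 at CT7, 9.44, 9.33 and 9.60 at CT13 and 9.75, 9.62 and 9.57 at CT19. The MUT arrays at CT13 were again all above those of CON, with the lowest MUT array at 9.60 and the highest CON array at 9.60 to 2 decimals.

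The sizes in MUT were 0.16 ± 0.09 for Psmb8, 0.09 ± 0.10 for Psmb9 and 0.14 ± 0.08 for Psmb10 (adjusted p = 0.589, 0.876 and 0.577). In CON they were 0.15 ± 0.09, 0.21 ± 0.10 and 0.15 ± 0.08 (adjusted p = 0.421, 0.315 and 0.332). Each immunoproteasome gene was set against its constitutive counterpart as a difference of deviations from the genes' own means. For Psmb8 minus Psmb5 it was -0.12 ± 0.14, 0.14 ± 0.07, -0.09 ± 0.61 and 0.27 ± 0.09 at CT1, 7, 13 and 19 in MUT, and -0.25 ± 0.10, 0.24 ± 0.08, -0.05 ± 0.13 and -0.13 ± 0.19 in CON (SD, n = 3). For Psmb9 minus Psmb6 the values were -0.04 ± 0.23, 0.13 ± 0.13, -0.02 ± 0.07 and 0.26 ± 0.06 in MUT, and -0.26 ± 0.02, -0.06 ± 0.16, -0.08 ± 0.02 and 0.06 ± 0.12 in CON. Psmb10 minus Psmb7 gave -0.08 ± 0.11, -0.0030 ± 0.09, 0.02 ± 0.21 and 0.17 ± 0.13 in MUT, and -0.10 ± 0.10, -0.03 ± 0.16, -0.03 ± 0.22 and 0.05 ± 0.20 in CON. The lowest mean was at CT1 in each pair and genotype, and the highest at CT19 except for Psmb8 minus Psmb5 in CON, which was highest at CT7. These differences were not tested. Psmb11 lay low in the array's range (percentile 41.4) and was not called, with 0.15 ± 0.09 in MUT and 0.19 ± 0.09 in CON.

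**Figure D3:**
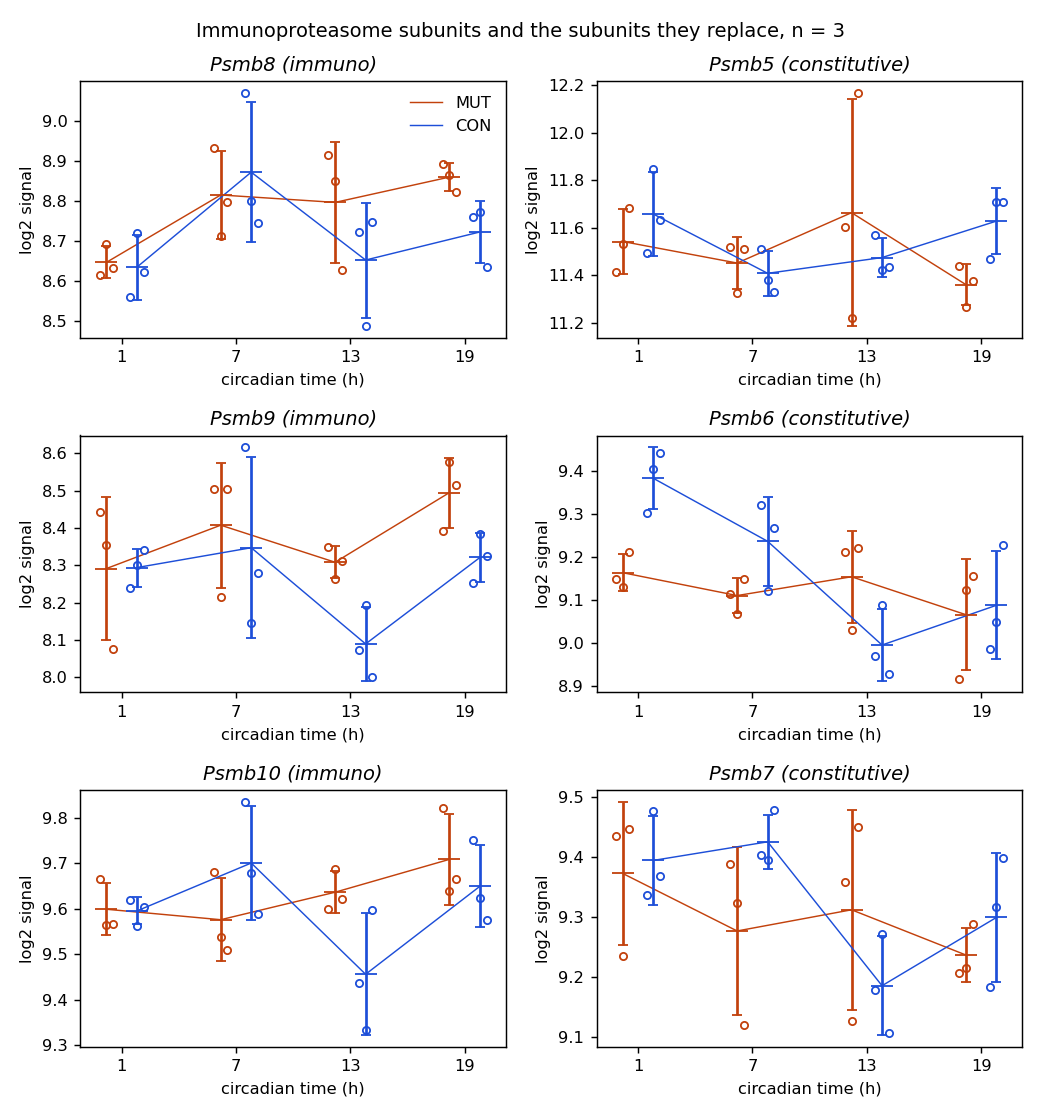
Log2 signal (y axis) by circadian time (x axis) for Psmb8, Psmb9 and Psmb10 (left) and Psmb5, Psmb6 and Psmb7 (right), MUT in orange left of CON in blue; circles are arrays, bars mean and SD (n = 3). Psmb6 in CON is highest at CT1, at 9.30 to 9.44, and lowest at CT13, at 8.93 to 9.09, while in the Psmb9 panel the MUT arrays lie above the CON arrays at CT13 and CT19.

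Of the 6 cap ATPases, which unfold the substrate and open the core, 0 were rhythmic in MUT (smallest adjusted p, 0.375 for Psmc5 at 0.18 ± 0.07) and 3 in CON. Psmc5 was at 8.43, 8.49 and 8.57 at CT1, 8.39, 8.25 and 8.25 at CT7, 8.37, 8.22 and 8.39 at CT13 and 8.22, 8.28 and 8.28 at CT19 in MUT. In CON Psmc5 was at 8.63, 8.63 and 8.72 at CT1, 8.42, 8.37 and 8.47 at CT7, 8.16, 8.33 and 8.05 at CT13 and 8.27, 8.30 and 8.42 at CT19. The CON arrays at CT1 were higher than every other array. Psmc5 had a size of 0.49 ± 0.07 in CON (1.40-fold, peak at CT1.70, adjusted p = 0.000399). Psmc1 was at 10.19, 10.22 and 10.27 at CT1, 10.25, 10.08 and 10.13 at CT7, 10.18, 9.97 and 10.20 at CT13 and 10.14, 10.25 and 10.15 at CT19 in MUT. In CON Psmc1 was at 10.33, 10.41 and 10.31 at CT1, 10.49, 10.33 and 10.40 at CT7, 10.01, 10.01 and 9.9970 at CT13 and 10.04, 10.27 and 10.22 at CT19. All CON arrays at CT1 and CT7 lay above all MUT arrays, and the CON arrays at CT13 lay close together. The size of Psmc1 was 0.11 ± 0.07 in MUT and 0.42 ± 0.07 in CON (peak at CT3.28, adjusted p = 0.00178). Psmc6 was at 9.91, 9.93 and 10.12 at CT1, 9.90, 9.98 and 9.96 at CT7, 9.99, 10.04 and 10.17 at CT13 and 10.03, 10.21 and 9.99 at CT19 in MUT. In CON Psmc6 was at 9.92, 10.07 and 10.04 at CT1, 9.92, 9.81 and 9.85 at CT7, 9.54, 9.84 and 9.80 at CT13 and 9.92, 10.08 and 10.16 at CT19. The CON arrays at CT13 were below all MUT arrays of that time. Psmc6 reached 0.34 ± 0.08 in CON with a peak at CT22.7 (adjusted p = 0.0222), a call that ended after quantile normalization (0.0583), with the trend removed (0.0825) and without the narrow arrays (0.268).

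Among the 11 non-ATPase cap subunits 0 were called in MUT, where Psmd8 had the smallest adjusted p (0.188 at 0.30 ± 0.09), and 5 in CON: Psmd4, Psmd11, Psmd1, Psmd3 and Psmd12. Psmd4 encodes a ubiquitin receptor. Psmd4 was at 9.76, 9.81 and 9.83 at CT1, 9.76, 9.66 and 9.66 at CT7, 9.73, 9.71 and 9.58 at CT13 and 9.77, 9.69 and 9.65 at CT19 in MUT. In CON Psmd4 was at 10.03, 9.93 and 10.11 at CT1, 10.16, 9.79 and 10.11 at CT7, 9.29, 9.76 and 9.62 at CT13 and 9.55, 9.71 and 9.80 at CT19. In CON the arrays at CT1 were all above the MUT arrays of that time. At CT13 the genotypes overlapped, and CON CT13 replicate 1 was the lowest of all at 9.29. Psmd4 had a size of 0.13 ± 0.10 in MUT and 0.57 ± 0.10 in CON (1.48-fold, peak at CT3.34, adjusted p = 0.00211). Psmd11, a scaffold subunit of the lid, was at 9.87, 10.07 and 9.95 at CT1, 9.98, 9.95 and 9.94 at CT7, 9.82, 9.92 and 10.06 at CT13 and 10.02, 10.06 and 9.92 at CT19 in MUT. In CON Psmd11 was at 10.05, 9.90 and 10.10 at CT1, 9.99, 9.67 and 9.98 at CT7, 9.63, 9.71 and 9.76 at CT13 and 9.77, 9.90 and 9.99 at CT19. At CT13 every CON array was below every MUT array. Psmd1, the large scaffold of the base, was at 10.52, 10.48 and 10.55 at CT1, 10.62, 10.44 and 10.57 at CT7, 10.44, 10.37 and 10.59 at CT13 and 10.40, 10.60 and 10.42 at CT19 in MUT. In CON Psmd1 was at 10.66, 10.63 and 10.81 at CT1, 10.58, 10.40 and 10.50 at CT7, 10.23, 10.38 and 10.53 at CT13 and 10.39, 10.69 and 10.59 at CT19. At CT1 the CON arrays were above those of MUT. The sizes in CON were 0.32 ± 0.09 for Psmd11 (adjusted p = 0.0337), 0.33 ± 0.09 for Psmd1 (0.0355), 0.25 ± 0.07 for Psmd3 (0.0461) and 0.31 ± 0.09 for Psmd12 (0.0481). The calls of Psmd12 and Psmd3 changed in 18 and 15 of the 24 fits that left out an array.

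The activator caps gave 0 calls in MUT and 1 in CON, Psme3, which encodes the nuclear activator PA28 gamma. Psme3 was at 9.33, 9.72 and 9.73 at CT1, 9.40, 9.62 and 9.60 at CT7, 9.50, 9.70 and 10.11 at CT13 and 9.59, 9.71 and 9.52 at CT19 in MUT. In CON Psme3 was at 9.52, 9.58 and 9.43 at CT1, 9.26, 9.16 and 9.09 at CT7, 9.36, 9.48 and 9.64 at CT13 and 9.77, 9.63 and 9.65 at CT19. The CON arrays at CT7 lay below every other array of both genotypes. Its size was 0.19 ± 0.12 in MUT and 0.51 ± 0.12 in CON (peak at CT19.1, adjusted p = 0.015), and the size stayed between 0.40 and 0.56 under all alternatives. The call ended without the narrow arrays, 2 of which are CON arrays at CT7 (0.42 ± 0.16, adjusted p = 0.273), with a mesothelium score as a covariate (0.40 ± 0.15, 0.163), without CON CT7 replicate 3 (0.0604) and without CON CT19 replicate 1 (0.056). That score, the median deviation of 8 markers of the fat pad's surface cells, was 0.0014, -0.19, 0.25 and 0.44 at CT1, 7, 13 and 19 in MUT and -0.24, -0.65, 0.10 and 0.25 in CON. Of the 8 markers 0 were rhythmic in MUT and 7 in CON, with median sizes of 0.72 in MUT and 1.09 in CON. The test of a differing rhythm passed 0 of these 8 markers. Their part in the time course of Psme3 was not tested beyond that covariate. Psme1, an interferon-inducible PA28 subunit, had the smallest adjusted p of any member in MUT (0.142, at 0.32 ± 0.09).

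Of the 7 assembly chaperones 0 were called in MUT, where Psmg1 had 0.37 ± 0.12 (adjusted p = 0.234), and 2 in CON, Psmd5 and Psmg2. Psmd5 holds ATPases during assembly of the base. Psmd5 was at 9.62, 9.44 and 9.69 at CT1, 9.43, 9.42 and 9.56 at CT7, 9.53, 9.46 and 9.67 at CT13 and 9.38, 9.51 and 9.29 at CT19 in MUT. In CON Psmd5 was at 9.44, 9.53 and 9.37 at CT1, 9.35, 9.26 and 9.08 at CT7, 9.16, 9.25 and 9.22 at CT13 and 9.44, 9.60 and 9.52 at CT19. At CT7 and at CT13 every MUT array was above every CON array. The size of Psmd5 was 0.38 ± 0.08 in CON (peak at CT21.6, adjusted p = 0.00974), and of the alternatives only the omission of the narrow arrays ended that call (0.182). Psmg2, which helps build the alpha ring, was at 8.39, 8.49 and 8.58 at CT1, 8.36, 8.45 and 8.48 at CT7, 8.54, 8.67 and 8.76 at CT13 and 8.66, 8.57 and 8.41 at CT19 in MUT. In CON Psmg2 was at 8.40, 8.48 and 8.50 at CT1, 8.43, 8.35 and 8.27 at CT7, 8.30, 8.23 and 8.47 at CT13 and 8.59, 8.56 and 8.62 at CT19. Its MUT arrays at CT13 were above those of CON. Psmg2 had a size of 0.27 ± 0.08 in CON (adjusted p = 0.0443), a call that ended in 12 of 24 omissions and under 7 of 12 other settings. With the mean of its probe sets the size was 0.09 ± 0.06 (adjusted p = 0.495). Psmc3ip and Psme3ip1 were called in neither genotype.

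By class, 3 of 12 tested core genes (25%), 8 of 17 cap genes (47.1%) and 0 of 4 immunoproteasome genes were called in CON, beside 17.1% of all genes. The median size in CON was 0.26 for the core, 0.29 for the cap and 0.17 for the immunoproteasome class. The gap between core and cap depended on the setting: with the level trend removed 2 of 12 core genes (16.7%) and 3 of 17 cap genes (17.6%) were called, with medians of 0.21 for both. With arrays shifted to the same median they were 4 (33.3%) and 11 (64.7%), and in a fit of the CON arrays alone, where the order turned, 4 (33.3%) and 5 (29.4%). The immunoproteasome class had 0 calls of 4 under each of these settings.

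**Figure D4:**
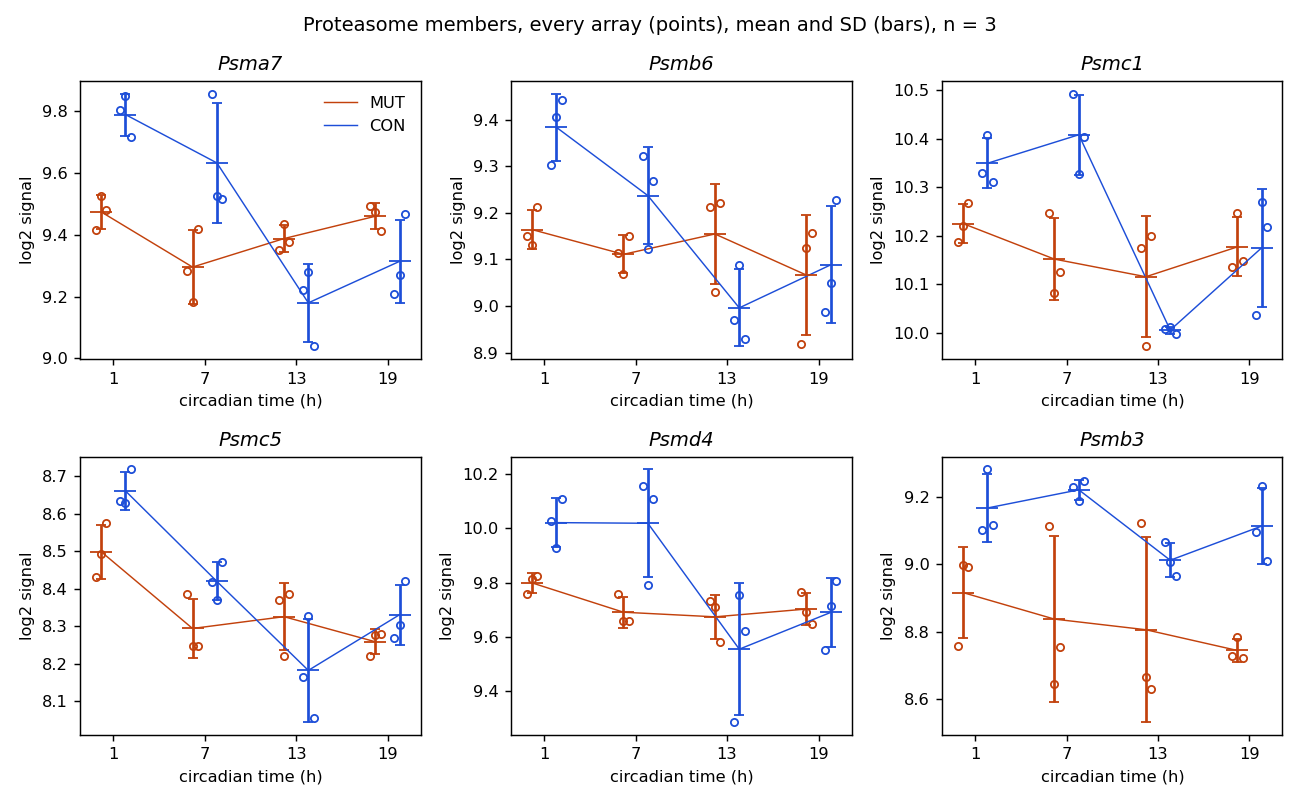
Log2 signal (y axis) by circadian time (x axis) on every array (circles), with mean and SD (bars, n = 3), MUT in orange left of CON in blue, for 5 members rhythmic in CON and for Psmb3. For Psma7 the CON means are 9.79 at CT1 and 9.18 at CT13, while MUT means stay between 9.30 and 9.47; Psmb3 lies lower in MUT at each time.

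Psma7 was the only member whose rhythm itself differed between MUT and CON at an adjusted p under 0.05, 1 of 46 (2.17%) where 1.44% of all genes were called. The difference of the fitted rhythms had a peak-to-trough of 0.71 ± 0.12 (adjusted p = 0.00965), and its call held under each of 35 alternatives. A further 10 members had an unadjusted p under 0.05, 11 of 46 in all (23.9%, against 15.7% of all genes). Next in order by adjusted p came Psmd5 (0.42 ± 0.12, 0.125), Psmb6 (0.39 ± 0.11, 0.141), Psmc1 (0.35 ± 0.10, 0.153) and Psmd4 (0.48 ± 0.14, 0.159). The rhythms of these and of the other members called in CON alone were thus not shown to differ from MUT. The CON size was above the MUT size in 38 of 46 members (82.6%), as in 66.4% of all genes.

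**Figure D5:**
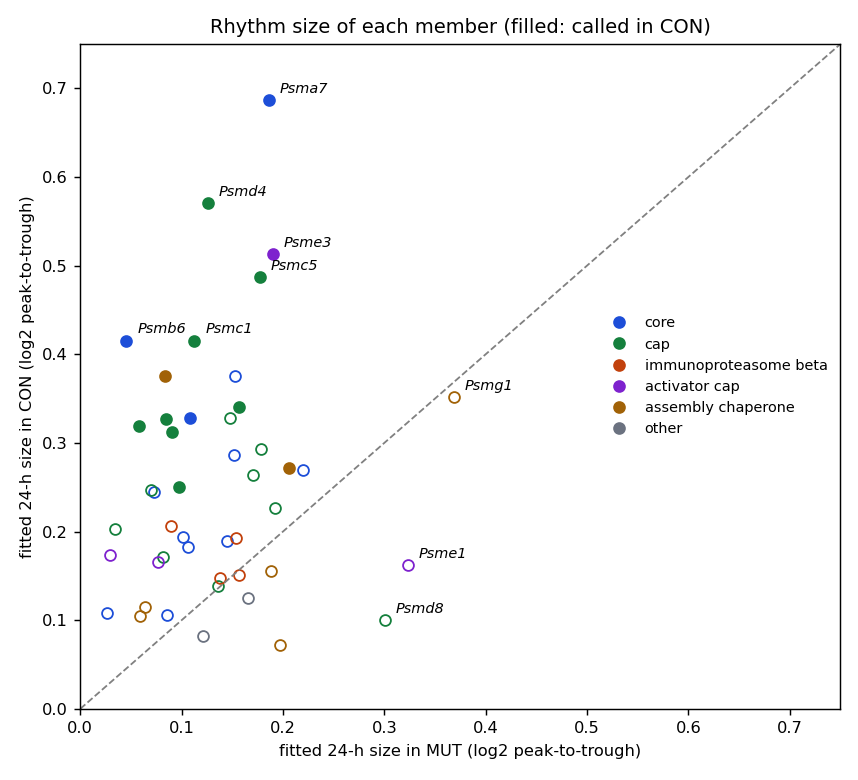
Fitted 24-h size of each tested member in MUT (x axis) and CON (y axis), both as log2 peak-to-trough; colour gives the class, filled circles are called in CON, and the dashed line marks equal sizes. Psma7 lies highest at 0.69 in CON and 0.19 in MUT, and 38 of 46 members lie above the line.

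At single times MUT was compared with CON by limma's moderated test, with positive values where MUT was higher. At CT1 no member passed (0.0451% of all genes did), 8 had an unadjusted p under 0.05 (17.4%, against 11.5%), and the median difference was -0.02. Psme2 (-0.38 ± 0.10, adjusted p = 0.115) and Psma7 (-0.31 ± 0.09, 0.136) had the smallest p. All MUT arrays were below all CON arrays in 10 of 46 members (21.7%, against 8.85% of all genes). At CT7 2 members passed (4.35%, where 4.05% of all genes did) and 9 had an unadjusted p under 0.05 (19.6%, against 20.6%). Both were lower in MUT (1.08% of all genes were called lower): Psma7 at -0.34 ± 0.09 (adjusted p = 0.0319) and Psmc1 at -0.26 ± 0.07 (0.0446). Neither call was firm, since it ended for both with arrays shifted to the same median (0.0631 and 0.092) and in a fit of the CT7 arrays alone (0.0725 and 0.0795). No member was called higher in MUT at CT7 (2.98% of all genes), and the largest differences above 0 were 0.37 ± 0.12 for Psme3 and 0.27 ± 0.10 for Psmd14.

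At CT13, the time of the low CON means, 0 of 46 members passed (0.322% of all genes did), 14 had an unadjusted p under 0.05 (30.4%, against 19.8%), and 37 of 46 differences were above 0 (80.4%, against 51.4%). The median difference was 0.13 for members and 0.0064 for all genes. The 4201 genes between the quartiles of the members' signals moved the same way, with median deviations at CT13 of 0.0080 in MUT and -0.07 in CON. All MUT arrays were above all CON arrays in 13 members (28.3%, where 10% of all genes were) and below them in 2 (4.35%, against 12.2%). All 11 non-ATPase cap subunits and all 5 alpha-ring genes had differences above 0, from 0.02 to 0.24 and from 0.03 to 0.26. The smallest adjusted p was 0.0677 for Psmg2 (0.33 ± 0.08), then 0.0683 for Psmd5 (0.35 ± 0.08) and 0.0754 for Psmc6 (0.34 ± 0.08). With the level trend removed 34 of 46 differences were above 0 (51% of all genes), and without the narrow arrays 35 (50.8%). At CT19 0 members passed (2.74% of all genes did), 6 had an unadjusted p under 0.05 (13%, against 22.8%), and Psmb3 came nearest at -0.37 ± 0.11 (adjusted p = 0.0721).

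Averaged over the 4 times, 7 of 46 members differed between MUT and CON (15.2%), where 21.7% of all genes did. Lower in MUT were Psmb3 and Psme2 (4.35%, against 9.42% of all genes). Psmb3, a structural subunit of the beta ring, was at 8.76, 8.9976 and 8.99 at CT1, 9.11, 8.64 and 8.75 at CT7, 9.12, 8.66 and 8.63 at CT13 and 8.73, 8.78 and 8.72 at CT19 in MUT. In CON Psmb3 was at 9.10, 9.28 and 9.12 at CT1, 9.23, 9.19 and 9.25 at CT7, 9.07, 9.01 and 8.96 at CT13 and 9.10, 9.23 and 9.01 at CT19. At CT1, CT7 and CT19 MUT and CON did not overlap. The daily mean of Psmb3 fell by 0.30 ± 0.06 on the log2 scale (adjusted p = 0.00292), and this call held under all 35 alternatives. Psme2, the partner of Psme1 in the interferon-inducible activator, was at 8.98, 8.70 and 8.96 at CT1, 9.12, 8.71 and 8.95 at CT7, 9.11, 8.95 and 8.79 at CT13 and 8.80, 8.82 and 9.07 at CT19 in MUT. In CON Psme2 was at 9.29, 9.33 and 9.17 at CT1, 9.12, 9.11 and 9.09 at CT7, 9.12, 9.14 and 9.04 at CT13 and 9.02, 9.14 and 9.07 at CT19. Its MUT arrays at CT1 were all below those of CON. For Psme2 the daily mean fell by 0.22 ± 0.05 (adjusted p = 0.00544), and the call ended without the narrow arrays (0.056).

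Higher in MUT were Psmb1, Psmd5, Psmd10, Psmd14 and Psmd6 (10.9%, against 12.3% of all genes). Psmb1, a structural subunit of the beta ring, was at 10.17, 10.36 and 10.22 at CT1, 10.19, 10.29 and 10.19 at CT7, 10.15, 10.27 and 10.41 at CT13 and 10.19, 10.38 and 10.34 at CT19 in MUT. In CON Psmb1 was at 10.19, 10.18 and 9.9991 at CT1, 10.03, 9.93 and 10.21 at CT7, 9.96, 9.98 and 10.15 at CT13 and 10.03, 10.14 and 10.18 at CT19. The MUT arrays were above the CON arrays at CT13 and CT19. Psmb1 was higher by 0.18 ± 0.04 (adjusted p = 0.00727). Psmd10, the chaperone gankyrin, was at 8.95, 8.83 and 9.08 at CT1, 8.90, 8.84 and 8.96 at CT7, 8.92, 8.95 and 8.96 at CT13 and 9.03, 9.21 and 9.05 at CT19 in MUT. In CON Psmd10 was at 8.90, 8.79 and 8.89 at CT1, 8.99, 8.72 and 8.84 at CT7, 8.64, 8.89 and 8.83 at CT13 and 8.79, 8.87 and 8.90 at CT19. Only at CT13 and at CT19 were the MUT arrays all above those of CON. The differences were 0.15 ± 0.04 for Psmd5 (adjusted p = 0.0169) and 0.14 ± 0.04 for Psmd10 (0.0205). Psmd14, the enzyme of the lid that removes ubiquitin from the substrate, was higher by 0.16 ± 0.05 (0.0245), and Psmd6 of the lid by 0.16 ± 0.05 (0.0385). Psmd14 was at 9.37, 9.54 and 9.72 at CT1, 9.45, 9.44 and 9.36 at CT7, 9.31, 9.29 and 9.67 at CT13 and 9.46, 9.53 and 9.52 at CT19 in MUT. In CON Psmd14 was at 9.39, 9.28 and 9.36 at CT1, 9.18, 9.16 and 9.09 at CT7, 9.19, 9.36 and 9.30 at CT13 and 9.26, 9.64 and 9.50 at CT19. Psmd6 was at 9.28, 9.17 and 9.55 at CT1, 9.10, 8.95 and 9.14 at CT7, 9.05, 9.15 and 9.43 at CT13 and 9.02, 9.35 and 9.20 at CT19 in MUT. In CON Psmd6 was at 8.97, 9.04 and 9.03 at CT1, 9.03, 8.85 and 8.95 at CT7, 8.83, 9.10 and 8.99 at CT13 and 9.07, 9.32 and 9.31 at CT19. For Psmd14 the MUT arrays were above those of CON at CT7, and for Psmd6 at CT1. Each of these 5 calls ended under at least 1 alternative, and the cap ATPases, the alpha ring and the immunoproteasome class gave no call.

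Genes that work with the proteasome were counted from lists of partners. For these lists and the marker lists, the shares of all genes called were 0.348% in MUT, so that 0 is the usual count for a short list there, and 17.1% in CON. Calls in CON alone do not show that the rhythms differ. The test of the difference (1.44% of all genes called) passed 0 genes of the partner, ubiquitin, MHC class I, interferon and heat shock lists. Of 16 tested partner genes 0 were rhythmic in MUT and 7 in CON: Nfe2l2, which encodes the stress factor NRF2 (0.52 ± 0.10, peak at CT16.2), Ube3c (0.40 ± 0.08), Zfand5 (0.30 ± 0.06) and Pomp, the maturation chaperone of the core (0.48 ± 0.09, CT0.47), lead by p. Nfe2l1, which encodes NRF1, the factor known to drive proteasome genes when the protease is inhibited, was not called in CON (0.19 ± 0.06, adjusted p = 0.0947) and was 0.24 ± 0.06 higher in MUT at CT7 (0.0352). Pomp was 0.41 ± 0.09 higher in MUT at CT13 (adjusted p = 0.0589). Of 7 tested genes for ubiquitin and the unfoldase p97, 0 were rhythmic in MUT and 3 in CON, Ubxn1, Vcp and Faf1. Of 5 ubiquitin ligases known from wasting muscle 0 were rhythmic in MUT and 2 in CON. Among these Fbxo32 (0.53 ± 0.09 in CON, peak at CT4.21) also differed in rhythm, and it was 0.45 ± 0.09 higher in MUT at CT19 (adjusted p = 0.014).

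Of 11 genes for loading peptides on MHC class I, 0 were rhythmic in MUT and 5 in CON. The 4 with the smallest p were Tap2 (0.36 ± 0.08, peak at CT4.29), Erap1 (0.34 ± 0.08), Tap1 (0.50 ± 0.12, CT3.79) and Pdia3 (0.21 ± 0.06). Of 13 interferon-response genes 0 were rhythmic in MUT and 3 in CON, Cxcl9, Irf1 and Ifit3. Of 12 heat shock genes 0 were rhythmic in MUT and 8 in CON. Hspa8 (0.65 ± 0.07, CT16.7), Serpinh1 (0.58 ± 0.12, CT19.0), Hspa1b (0.65 ± 0.13, CT14.5) and Hsph1 (0.78 ± 0.16, CT16.5) peaked in the subjective night, before the called core and cap genes. Among 20 clock genes 12 were rhythmic in MUT and 17 in CON, and 15 differed in rhythm between them (1.44% of all genes did). Arntl had its highest mean at CT13 in MUT (9.52) and at CT19 in CON (9.54). The same CT was thus not shown to be the same phase of the fat's clock in both genotypes. Macrophage markers were rhythmic in 0 of 11 in MUT and 4 of 11 in CON, and endothelial markers in 0 of 8 and 3 of 8. Fibroblast and preadipocyte markers gave 0 of 8 in MUT and 5 of 8 in CON, and adipocyte markers 0 of 10 and 2 of 10. Dendritic cell markers gave 0 of 5 in MUT and 1 of 5 in CON. None of 3 T and NK cell or 4 B cell markers was called in either. No macrophage, endothelial or fibroblast and preadipocyte marker passed the test of a differing rhythm, where 1 of 10 adipocyte markers, Lep, did. Median sizes of macrophage markers were 0.44 in MUT and 0.46 in CON. The median deviation of the fibroblast and preadipocyte markers was -0.02, -0.10, 0.08 and 0.16 at CT1, 7, 13 and 19 in MUT, and -0.03, -0.32, 0.05 and 0.17 in CON. The part of cell make-up in the members' time courses was not tested beyond the mesothelium covariate.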

How the data were processed

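Total RNA of 24 mouse samples was hybridised to Affymetrix GeneChip arrays, 1 array per sample, in 8 groups of 3 by genotype and circadian time. The deposited log2 signals were produced by the authors with Affymetrix Expression Console (RMA), per the submitters' processing notes. RMA normalizes all arrays to a common distribution. The deposited signals still differed between arrays in median (7.80 to 7.94) and SD (1.583 to 1.671). No version, setting or genome build is given in the sources used here. Correlations between arrays over all probe sets ran from 0.982 to 0.996, and no columns were identical. Precision is limited by the 3 arrays per group.

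Of 34390 probe sets 23521 name a single gene, 1814 name several, and 9055 are unnamed. The brightest single-symbol probe set stood for each of 22180 genes, and genes with a mean under the 30th percentile (7.42) were left out, which leaves 15526. Signals of different genes were set side by side only as percentiles, for marker lists and Psmb11, and probes differ in brightness. With limma 3.58.1 in R 4.3.3, 1 mean per group was fitted to all arrays and genes (16 residual degrees of freedom), with 24-h cosine and sine contrasts in MUT, in CON and for their difference. The daily mean and each time point were compared as MUT minus CON, two-sided. Benjamini-Hochberg adjustment ran over all genes tested, and 0.05 was the threshold. The fits were tested on simulated data with independent noise for each gene. Those data held no scale differences between arrays, so that test does not bear on them.

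The members, gene lists, roles and alternatives were chosen with earlier results of these data known, so patterns already seen there are not independent support. Array values are given for Psmb5, Psmb6, Psmb7, Psmb8, Psmb9 and Psmb10 and for up to 3 called members per role and comparison with the smallest p, and where a role had no call its member with the smallest p was named for most comparisons. Other lists are given as counts with up to 4 called genes. Alternative settings were a shift of arrays to the same median, quantile normalization, removal of each array's trend on signal level, no level filter or one at the 60th percentile, averaged probe sets per gene, omission of the 3 arrays of narrow spread, single genotypes or times, a replicate block, array weights, trended and robust variance, a mesothelium covariate, an F test over the 4 times, and each array left out. Promoter letters are RefSeq's for GRCm38.p6. Python 3.11.15 with matplotlib 3.10.9 drew the figures.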

Additional observations from a re-analysis of the deposited data

Results flagged for a closer look

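The rhythm of Psma7 differed between MUT and CON by a test of the difference itself: the difference of the fitted rhythms had a size of 0.711 (log2 peak-to-trough) (limma's moderated F test, adjusted p = 0.00965). The fitted sizes were 0.19 ± 0.09 in MUT and 0.69 ± 0.09 in CON (SE).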

How the results depend on the processing

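The number of members rhythmic in MUT was 0 under every alternative except array weights, which gave 2. For rhythms in CON (14 members) the count was 8 after quantile normalization, 7 with the level trend removed, 6 without the 3 arrays of narrow spread and 9 with the mesothelium covariate, and 8 to 16 when single arrays were left out. The differing rhythm (1 member) gave 2 with array weights and 1 without any single array. For the daily mean (7 members) the counts were 13 with arrays shifted to the same median, 2 without the narrow arrays, 3 with the mesothelium covariate and 6 to 10 without single arrays. At CT7 (2 members) they were 4 after quantile normalization, with the level trend removed and with the 60th-percentile filter, 0 with arrays shifted to the same median and with the mesothelium covariate, 1 with no level filter and without the narrow arrays, 9 with array weights and 0 to 4 without single arrays. The array omissions that left 0 at CT7 were of CON CT7 replicate 1 and MUT CT7 replicate 2. At CT13 (0 members) quantile normalization gave 1, the shift to the same median 3, the 60th-percentile filter 2, and single omissions 0 to 1. At CT19 (0 members) the arrays of that time alone gave 1, array weights 2, and single omissions 0 to 1. At CT1 the count was 0 under all alternatives. The cause of these changes was not tested. No called difference changed sign.

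The letters a to c of the titles were checked as pairs. Of 84 same-letter pairs of arrays 17 had correlated deviations over 0.1, and the mean was -0.01, against 0.0072 for pairs of different letters. Only 4 of 24 arrays correlated best with their own letter. Pairing by letter was thus not seen, but such a check cannot exclude it. With the replicate block the count at CT7 was 1 and that of rhythms in CON 12. Genes not far above the level filter of 7.42, such as Psmb11 (7.85) and Psmg4 (7.76), may have little signal over background, which was not measured.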
